A study of Mus musculus with 48 samples.

Results

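The transcripts of 4 peptide hormone genes, Gcg, Pyy, Insl5 and Nts, were followed across 3 regions of the mouse gut and 3 surgery groups. They were chosen by name as the peptide genes of enteroendocrine L cells, and all 4 were found by Ensembl identifier among the 53465 genes of the count table. The cells were NeuroD1-positive cells of male, lean, chow-fed mice on a C57BL6 background that carry Neurod1-cre and an EYFP reporter, sorted as EYFP-positive and CD45-negative. Mice were about 20 weeks old when they had vertical sleeve gastrectomy (VSG), in which most of the stomach was removed, or a sham operation, after which they ate ad libitum (sham AL) or were fed so that their weights matched those after VSG (sham WM). Weekly injections of vitamin B12 were given to the VSG mice, and their effect cannot be told apart from that of VSG. All mice received a liquid diet around the operation, and tissue was taken 6 weeks later, after an overnight fast and about 15 min after a glucose gavage of 3 g/kg. Duodenum stands for the first 5 cm of small intestine, ileum for its last 15 cm, and colon for colon plus rectum. Each region had 5 sham AL, 5 sham WM and 6 VSG libraries, 1 per mouse, made from 2 ng of RNA and read as 50 bases from 1 end. Of 17 mice, 15 had all 3 regions, and mouse 17 (sham AL) gave a duodenum library alone and mouse 24 (sham AL) no duodenum library.

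Enteroendocrine cells are scattered single cells of the gut lining that release peptide hormones when nutrients arrive. The L cell is the type known for proglucagon, the product of Gcg, which the convertase encoded by Pcsk1 cuts into the incretin GLP-1 and the gut growth factor GLP-2, whereas Pcsk2 in the pancreas releases glucagon from the same precursor. Pyy encodes peptide YY, which slows gut transit and lowers appetite. Nts encodes neurotensin, a peptide of the lower small intestine with actions on fat absorption and motility, and Insl5 encodes insulin-like peptide 5, a relaxin family hormone of the large bowel whose receptor is Rxfp4. The reporter marks enteroendocrine cells as a mixture of types, so that in these bulk libraries fewer cells that make a peptide and less of its RNA per cell cannot be told apart.

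All 4 genes lie on the minus strand of GRCm38, and none overlaps another annotated gene. Gcg spans chr2:62474530-62483650 with 7 merged exons and 1494 exonic bases, Pyy chr11:102106676-102107832 with 4 and 631, Insl5 chr4:103017872-103026842 with 3 and 724, and Nts chr10:102481756-102490486 with 4 and 1248. Their promoters are shown because the levels of the 4 genes are compared below as members that move together or apart. Each is the 250 bases before the RefSeq start (GRCm38.p6), read 5′ to 3′ on the strand of the gene, less any base that GENCODE M21 places inside the transcript (9 for Insl5, 68 for Nts). Capitals mark the letters TTTAT, a core that Cdx factors bind, and CAGATG, an E-box that NeuroD1 binds, on either strand. The first of these, read on the other strand, is also part of a TATA box.
Gcg, chr2:62483654-62483903: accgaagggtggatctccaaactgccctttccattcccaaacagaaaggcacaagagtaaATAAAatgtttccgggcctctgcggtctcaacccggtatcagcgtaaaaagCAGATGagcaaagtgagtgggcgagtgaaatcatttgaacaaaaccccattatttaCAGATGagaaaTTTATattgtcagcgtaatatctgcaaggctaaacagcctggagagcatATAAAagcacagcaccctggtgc
Insl5, chr4:103026738-103026978: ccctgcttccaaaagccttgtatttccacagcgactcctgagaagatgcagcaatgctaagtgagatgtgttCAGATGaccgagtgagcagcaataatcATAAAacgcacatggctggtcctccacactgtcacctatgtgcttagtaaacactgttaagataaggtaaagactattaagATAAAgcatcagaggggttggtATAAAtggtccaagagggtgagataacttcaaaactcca
Pyy, chr11:102107833-102108082: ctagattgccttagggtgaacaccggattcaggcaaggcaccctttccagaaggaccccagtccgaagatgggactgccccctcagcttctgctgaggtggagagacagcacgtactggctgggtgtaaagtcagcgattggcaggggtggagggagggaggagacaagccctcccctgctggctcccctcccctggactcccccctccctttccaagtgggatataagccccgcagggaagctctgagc
Nts, chr10:102490487-102490668: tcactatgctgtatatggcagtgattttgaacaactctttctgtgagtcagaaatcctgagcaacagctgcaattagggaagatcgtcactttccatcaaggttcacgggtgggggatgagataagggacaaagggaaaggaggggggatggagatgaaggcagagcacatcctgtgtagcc
Gcg held 3 copies of the Cdx core and 2 of the E-box, and Insl5 held 3 and 1, whereas the Pyy and Nts windows held neither. Among 27025 promoters, windows as long as those of Gcg and Pyy held the Cdx core in 38.1% and the E-box in 14.5%, those as long as that of Insl5 in 37.6% and 14.2%, and those as long as that of Nts in 30.7% and 11%. These are matches of letters, not measured binding.

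Total counts ranged from 4648651 to 17182463 per library, with a median of 6713018. All 8 enteroendocrine markers (Chga, Chgb, Scg2, Scg3, Neurod1, Rfx6, Insm1 and Pax6) were at a median of at least 1 CPM (counts scaled to a common library size by TMM) in each region, and their sum was 28962 to 99069 CPM in the colon, 33747 to 82645 in the ileum and 11442 to 72360 in the duodenum. The lowest sum was that of the duodenum library of sham WM mouse 27, where Chga was at 3889 CPM and the enterocyte markers below at 34524 CPM. Several values without it are given below. Markers of other cells differed between regions: the summed level of 6 enterocyte genes had a median of 5477 CPM for duodenum, 6886 for ileum and 395 for colon, and that of 5 goblet cell genes 3425, 3809 and 9022. Of 7 islet genes the insulin genes Ins1 and Ins2 did not exceed 0.693 CPM in any library, and G6pc2 and Mafa had medians of at most 0.227 CPM. The other 3 islet genes were present: medians in duodenum, ileum and colon were 46, 24.5 and 58 CPM for Iapp, 0, 3.42 and 44.9 for Ppy, and 60.4, 40.8 and 0.881 for Slc2a2, which reached 919 CPM in the duodenum library of mouse 27. The summed acinar markers did not exceed 1.59 CPM. The descriptions of 2 libraries of mouse 12 swap ileum and colon against their tissue labels, which were followed. The first index sequence of the libraries, as given in the titles, partly follows the region: duodenum libraries had D501 or D502, ileum libraries D501, D503 or D504, and colon libraries mostly D504.

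Of the 15126 genes tested, 17.2% were higher and 16.6% lower in the ileum than in the duodenum by edgeR's quasi-likelihood test, and all 4 members were among the higher genes. Between colon and duodenum 26.8% of genes were higher and 28.3% lower in the colon. There 2 members, Pyy and Insl5, were higher and Gcg and Nts did not pass the threshold. Between colon and ileum 23.8% of genes were higher and 25.4% lower in the colon, where Insl5 was higher and Gcg and Nts were lower. Passing was thus common among all genes in these contrasts, and the sizes of the members' differences are given below. The fit took the regions of a mouse as independent libraries, so that its SE and p-values leave out the pairing by mouse. All 4 members passed the filter on low counts, Insl5 through its colon libraries, so that a difference of Insl5 from the colon was built into the test.

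Gcg, which encodes proglucagon, was detected in every library and was highest in the ileum. Over the 16 libraries of a region its lowest, median and highest levels were 189, 563 and 1317 CPM in the duodenum, 571, 1087 and 3748 CPM in the ileum, and 185, 737 and 1882 CPM in the colon. The ranges of the 3 regions overlapped. The ileum exceeded the duodenum by 0.99 on the log2 scale (SE 0.263, edgeR adjusted p = 0.00284), and the ileum library was the higher of the pair in 12 of 15 mice. From ileum to colon Gcg fell by 0.62 on the log2 scale (SE 0.262, edgeR adjusted p = 0.0457), and the colon library was the higher of the pair in only 2 of 16 mice. Between colon and duodenum the difference was 0.37 (SE 0.261, edgeR adjusted p = 0.236). The fall from ileum to colon rests on a narrow margin: without sham AL mouse 12, 13, 19, 24 or 32, sham WM mouse 27 or 29, or VSG mouse 11, 22 or 28, edgeR's adjusted p was 0.0534 to 0.116, and the difference was -0.51 to -0.66. Among libraries that share the first index, the ileum mean was 1093 ± 419 CPM (SD, n = 7) against 485 ± 214 (n = 4) in the duodenum (exact permutation test, p = 0.00909), and the colon mean 637 ± 395 (n = 4) against 1415 ± 1009 (n = 8) in the ileum (exact permutation test, p = 0.0525).

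In the duodenum, the sham AL mice had Gcg levels of 514, 536, 654, 701.3 and 1013 CPM. The sham WM mice had 189, 497, 652, 741 and 1020 CPM, of which the lowest is the library of mouse 27. VSG mice ran from 231 to 1317 CPM with a median of 498. The 3 groups overlapped throughout, and the highest and the second lowest Gcg level of this region both came from VSG mice. In the ileum, sham AL levels were 1069, 1104, 1222, 1461 and 1798 CPM. Sham WM levels were 571, 828, 831, 1597 and 3748 CPM. VSG levels ran from 644 to 1513 CPM with a median of 904. The sham AL libraries were the most alike here, with a coefficient of variation of 22.8% against 86.2% in the sham WM group, where mouse 29 stood far above the rest. In the colon, sham AL mice had 448, 679, 880, 1038 and 1210 CPM, and sham WM mice had 185, 551, 1204, 1250 and 1882 CPM. VSG levels ran from 307 to 928 CPM with a median of 634. Mouse 29 was again the highest for Gcg, and mouse 27 the lowest.

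Pyy, the gene of peptide YY, was low in the duodenum and several times higher in both distal regions. Its lowest, median and highest levels were 35.4, 107 and 264 CPM in the duodenum, 327, 691 and 1953 CPM in the ileum, and 260, 565 and 1161 CPM in the colon. The lowest ileum library exceeded the highest duodenum library, and the colon overlapped the duodenum only between 260 and 264 CPM. On the log2 scale Pyy was higher by 2.76 in the ileum (SE 0.251, edgeR adjusted p = 6.11e-12) and by 2.31 in the colon (SE 0.247, edgeR adjusted p = 8.51e-11) than in the duodenum, in 15 of 15 mice for both. Between colon and ileum the difference of -0.45 (SE 0.235) did not pass the threshold (edgeR adjusted p = 0.113), although the colon library was the higher in only 4 of 16 mice. Within 1 index the ileum mean was 752 ± 474 CPM (n = 7) and the duodenum mean 102 ± 47.5 (n = 4), without overlap (exact permutation test, p = 0.00303).

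Duodenal Pyy levels were 52.3, 102, 111, 129 and 142 CPM in sham AL mice and 35.4, 102, 127, 146 and 264 CPM in sham WM mice. Those of VSG mice ran from 71.5 to 157 CPM with a median of 102. The extremes of this region, 35.4 CPM in mouse 27 and 264 CPM in mouse 16, were both in the sham WM group. In the ileum, Pyy levels were 448, 513, 570, 615 and 772 CPM in sham AL mice. They were 327, 638, 743, 1209 and 1953 CPM in sham WM mice and 474 to 1754 CPM, with a median of 787, in VSG mice. Each of these latter groups had libraries above the highest sham AL level, but each also had a library below the middle one. In the colon, levels were 383, 569, 605, 728 and 729 CPM in sham AL mice and 265, 308, 609, 704.8 and 1161 CPM in sham WM mice. In VSG mice they ran from 260 to 991 CPM with a median of 489. The highest colon levels of Pyy belonged to sham WM mouse 29 and VSG mouse 25, which were also the highest in the ileum.

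Nts, the gene of neurotensin, was the member with the sharpest peak in the ileum. Its lowest, median and highest levels were 229, 432 and 1261 CPM in the duodenum, 3127, 5075 and 13693 CPM in the ileum, and 188, 338 and 633 CPM in the colon. No ileum library overlapped those of either other region. Nts was higher in the ileum than in the duodenum by 3.54 on the log2 scale (SE 0.232, edgeR adjusted p = 9.79e-17), and from ileum to colon it fell by 4.0 (SE 0.237, edgeR adjusted p = 4.63e-19), in all 15 and 16 mice with both regions. Colon and duodenum overlapped: the difference of -0.47 (SE 0.21) missed the threshold (edgeR adjusted p = 0.0564) and passed it with the mouse as a fixed replicate block (-0.49, edgeR adjusted p = 0.00707), without the duodenum library of mouse 27 (-0.52, edgeR adjusted p = 0.0334), or without sham AL mouse 12 or 17, sham WM mouse 21 or VSG mouse 25 (edgeR adjusted p = 0.02 to 0.0472). The ileum peak was as large within 1 index, with 6369 ± 3245 CPM in 7 ileum libraries against 430 ± 213 in 4 duodenum libraries, and 6490 ± 3222 CPM in 8 ileum libraries against 370 ± 110 in 4 colon libraries.

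Ileal Nts levels were 3256, 4264, 4655, 4836 and 5451 CPM in sham AL mice and 4800, 5154, 6015, 10619 and 11292 CPM in sham WM mice. In VSG mice they ran from 3127 to 13693 CPM with a median of 5326. The sham AL group was the tightest (coefficient of variation 18.1%), and the 4 highest levels came from sham WM mice 29 and 31 and VSG mice 25 and 30. Duodenal levels were 229, 302, 403, 526 and 739 CPM in sham AL mice, 278, 460, 641, 866 and 1261 CPM in sham WM mice, and 313 to 856 CPM with a median of 392 in VSG mice. Mice 29, 31 and 25, which were high for Nts in the ileum, were also the 3 highest in the duodenum. Colon levels were 334, 340, 384, 504.4 and 589 CPM in sham AL mice, 188, 292, 337, 442 and 596 CPM in sham WM mice, and 213 to 633 CPM with a median of 267 in VSG mice. No group stood apart from the others.

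Insl5, the gene of insulin-like peptide 5, was in practice a transcript of the colon. The 16 colon libraries held 264 to 2435 counts each, or 52 to 453 CPM with a median of 135. The 16 ileum libraries held 157 counts in all, with 0 to 34 per library and 2 libraries at 0, and the duodenum libraries 11 counts in all, with 0 to 3 per library and 9 at 0. Pooled over libraries, the level was 150 CPM in the colon (exact 95% Poisson interval 148 to 153), 1.49 CPM in the ileum (1.27 to 1.74) and 0.0822 CPM in the duodenum (0.041 to 0.147). The pooled ratio of ileum to duodenum was 18.1 (95% interval from the counts 9.85 to 37) and that of colon to ileum 101 (86.3 to 119). All these intervals cover counting error only and leave out the spread between mice, which was far wider in the colon. A count of 0 allows a level of up to 0.571 CPM in the shallowest duodenum library, and less in deeper ones. For single duodenum libraries at 0 only such an upper limit is known. The fitted difference, which depends on the prior count where a group is near 0, was 3.92 on the log2 scale between ileum and duodenum (SE 0.751, edgeR adjusted p = 6.03e-05). With the colon the fitted differences were 6.74 (colon minus ileum) and 10.66 (colon minus duodenum), given without a test because the filter was passed through the colon. The difference between ileum and duodenum did not pass with limma voom (3.19, adjusted p = 0.0511) or with the first index as a covariate (2.48, edgeR adjusted p = 0.448). The ileum library was the higher in 13 of 15 mice. Within index D501 the ileum mean was 1.18 ± 0.7 CPM (SD, n = 7) against 0.156 ± 0.155 (n = 4) in the duodenum, without overlap (exact permutation test, p = 0.00606). The colon exceeded the ileum in 16 of 16 mice.

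Colon Insl5 levels were 59.8, 60.4, 163, 171 and 250 CPM in sham AL mice. They were 65.8, 73, 144, 198 and 453 CPM in sham WM mice and 52 to 345 CPM, with a median of 120, in VSG mice. Of the members that were expressed in the region, Insl5 varied most between colon libraries, with a coefficient of variation of 72.5% against 53% for Gcg, 43.9% for Pyy and 37.8% for Nts. The highest levels belonged to sham WM mouse 29 and VSG mouse 25, the same libraries that were highest for colonic Pyy. In the ileum mouse 29 also had the highest Insl5 level (5.44 CPM, 34 counts), followed by sham WM mouse 27 (3.41 CPM, 24 counts), and both libraries at 0 were from VSG mice.

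**Figure D1:**
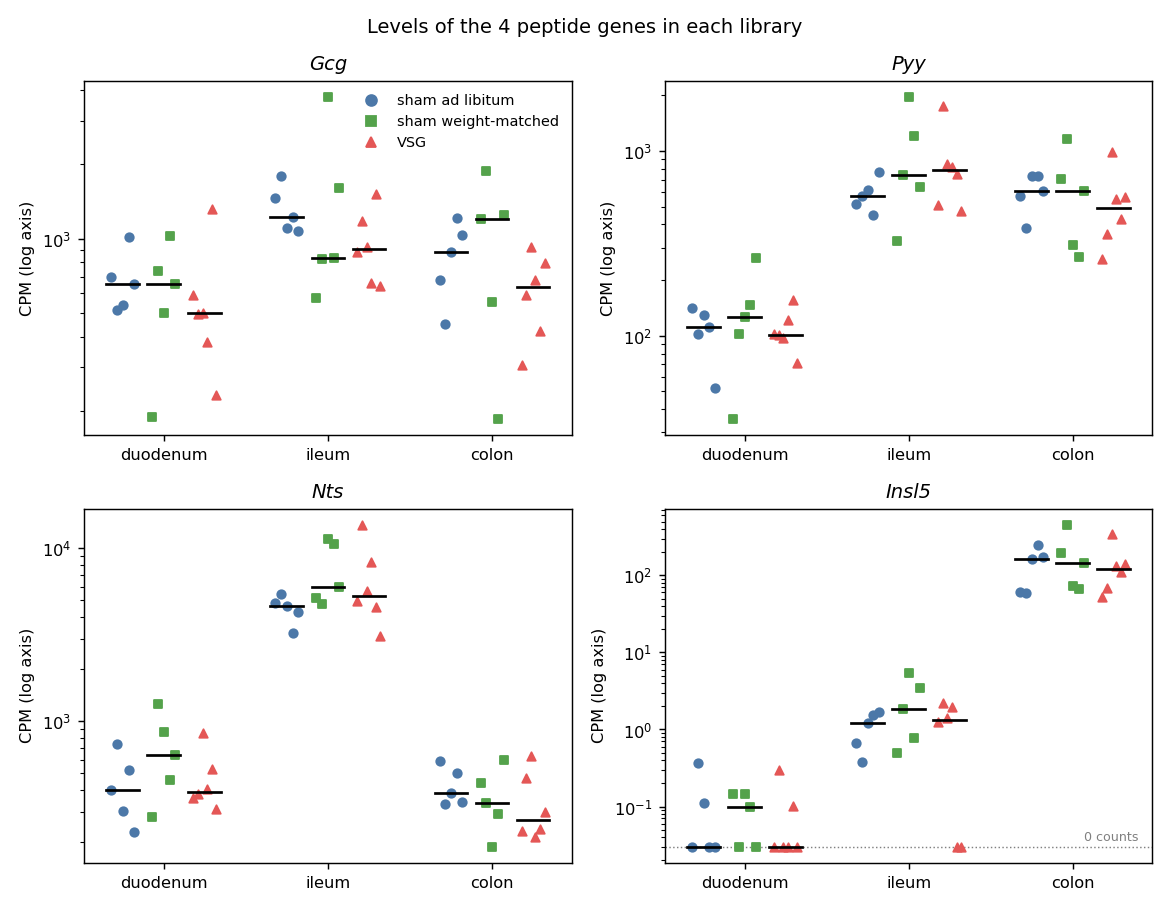
Level of each gene in each library, in CPM on a log axis, by region and surgery group (5, 5 and 6 libraries); black bars are group medians and Insl5 libraries with 0 counts are drawn on the dotted line. Nts peaks in the ileum (3127 to 13693 CPM), Insl5 in the colon (52 to 453 CPM), Pyy is high in both distal regions, and the surgery groups overlap everywhere.

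Neurod1, the gene that drives the reporter, was lower distally: its mean was 660 ± 181 CPM for duodenum, 412 ± 122 for ileum and 255 ± 65.1 for colon (SD, n = 16 each). The enteroendocrine markers did not all go this way between colon and duodenum. Scg2, Scg3, Rfx6 and Pax6 were also lower in the colon by edgeR. Chga was higher there by 0.37 on the log2 scale, and Chgb (-0.06) and Insm1 (0.24) did not pass the threshold. Scaling on 10 pan-endocrine genes instead of TMM moved the median log2 difference of all genes by 0.43 (ileum minus duodenum), 1.11 (colon minus duodenum) and 0.69 (colon minus ileum). Another scaling moves all genes of a contrast nearly alike, so that differences taken relative to these medians return to those under TMM by construction, with Gcg at 1.12, 0.47 and -0.66 and Nts at 3.62, -0.38 and -4.00 in the same order. Without that subtraction Nts was higher in the colon than in the duodenum by 0.73 (edgeR adjusted p = 0.00108), Gcg was higher by 1.58 (edgeR adjusted p = 4.19e-08), and colon minus ileum was 0.03 for Gcg and 0.23 for Pyy. The part that the make-up of the sorted cells has in the differences between regions was not tested.

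Levels of different genes can be compared per length. Per kilobase of exon, the mean duodenum levels were 428 ± 222 CPM for Nts, 420 ± 196 for Gcg, 184 ± 80.9 for Pyy and 0.11 ± 0.16 for Insl5 (SD, n = 16). In the ileum they were 5047 ± 2450 for Nts, 1283 ± 726 for Pyy, 838 ± 507 for Gcg and 2.1 ± 1.89 for Insl5, and in the colon 912 ± 400 for Pyy, 546 ± 289 for Gcg, 305 ± 115 for Nts and 214 ± 155 for Insl5. The leading transcript thus differed by region, with Gcg and Nts level in the duodenum, Nts first in the ileum and Pyy first in the colon. As shares of the 4 transcripts per kilobase within a library, Gcg made up 40.4 ± 11.6%, Nts 41.3 ± 12.2% and Pyy 18.2 ± 5.66% in the duodenum. In the ileum Nts made up 70.0 ± 6.14%, from 61.7% to 82.1% in single libraries, Pyy 17.6 ± 3.44% and Gcg 12.4 ± 4.95%. In the colon the shares were 46.4 ± 4.01% for Pyy, 26.7 ± 5.44% for Gcg, 16.8 ± 5.89% for Nts and 10.1 ± 2.97% for Insl5. The lowest Pyy share of a colon library, 38.9%, was above the highest Gcg share, 33.8%. Insl5 reached at most 0.0682% in an ileum library and 0.0519% in a duodenum library.

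**Figure D2:**
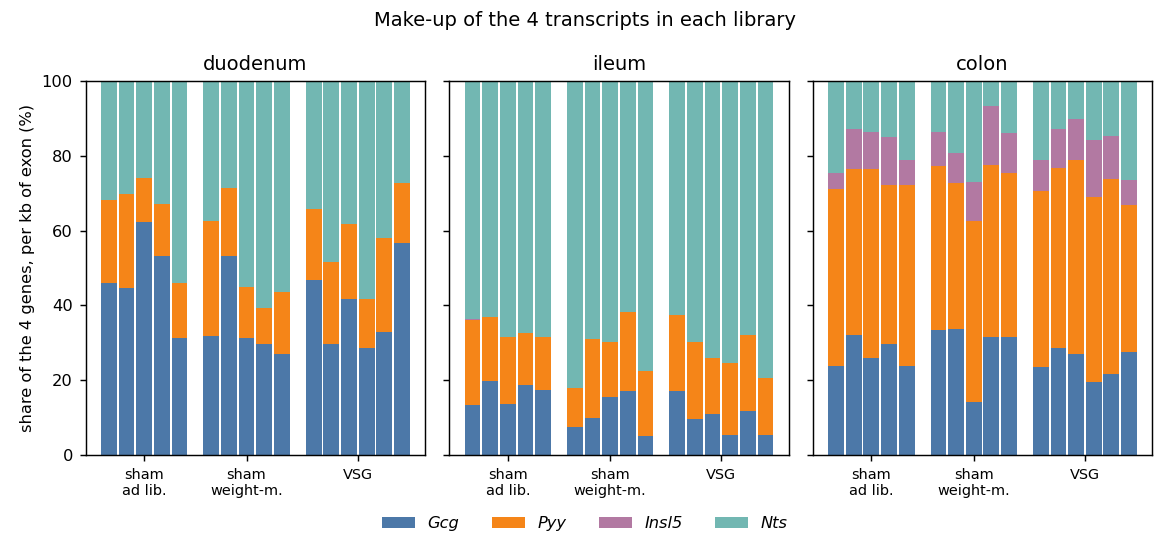
Share of each gene in the sum of the 4 transcripts per kilobase of exon (percent), 1 bar per library, grouped by surgery within each region. Nts takes 61.7% to 82.1% of the ileum bars and Pyy 38.9% to 52% of the colon bars, where Insl5 becomes visible.

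Whether VSG or weight matching changed these transcripts was asked in each region and over the mean of the regions. No member passed the threshold in any of these contrasts. Averaged over regions, VSG minus sham AL gave log2 differences of -0.38 for Gcg (SE 0.256), 0.12 for Pyy (SE 0.232), 0.13 for Nts (SE 0.206) and -0.25 for Insl5 (SE 0.738), with edgeR adjusted p of 0.992 for Gcg and 1 for the others. VSG minus sham WM gave -0.48 for Gcg (SE 0.256, edgeR adjusted p = 0.548), -0.24 for Pyy (SE 0.231), -0.28 for Nts (SE 0.206) and -0.63 for Insl5 (SE 0.945). Sham WM minus sham AL gave 0.10 for Gcg (SE 0.268), 0.36 for Pyy (SE 0.242), 0.40 for Nts (SE 0.216, edgeR adjusted p = 0.814) and 0.39 for Insl5 (SE 0.95). Each pair of these comparisons shares a group of mice, and the fit took the libraries of a mouse from different regions as independent. The signs of several of these small differences turned without 1 mouse: Pyy and Nts between VSG and sham AL mice were -0.07 and -0.15 without VSG mouse 25, and Gcg between the sham groups was -0.26 without sham WM mouse 29.

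The background of calls in these contrasts was low. In the mean of regions, edgeR called 0% of genes between VSG and sham AL mice, 0.245% between VSG and sham WM mice and 0.0529% between the sham groups. Within regions it called 0% in the duodenum, ileum and colon between VSG and sham AL mice, 0.225%, 0.0463% and 0.0595% between VSG and sham WM mice, and 0%, 0% and 0.0132% between the sham groups. The interaction of surgery and region called 0% of genes. Where edgeR called 0 genes, 370 to 1188 genes had an unadjusted p under 0.05, DESeq2 called 0 to 23 and limma voom 0 or 1. None of the 4 members had an unadjusted p under 0.05 in any of these contrasts with edgeR, and DESeq2 and limma voom called 0 of the 4 throughout.

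Within single regions the largest differences of the well-expressed members were those of Nts and Pyy in the ileum between the sham groups, where sham WM mice were higher by 0.75 (SE 0.374, edgeR adjusted p = 0.632) and 0.74 (SE 0.42, edgeR adjusted p = 0.698) on the log2 scale, and that of Gcg in the colon between VSG and sham WM mice, at -0.71 (SE 0.444, edgeR adjusted p = 1). Between VSG and sham AL mice in the ileum, Nts differed by 0.58 (SE 0.36), Pyy by 0.56 (SE 0.404) and Gcg by -0.46 (SE 0.443). Colonic Insl5 differed by -0.00 (SE 0.446) between VSG and sham AL mice and by -0.41 (SE 0.445) between VSG and sham WM mice. The joint test of surgery and region gave an adjusted p of 1 for each member.

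**Figure D3:**
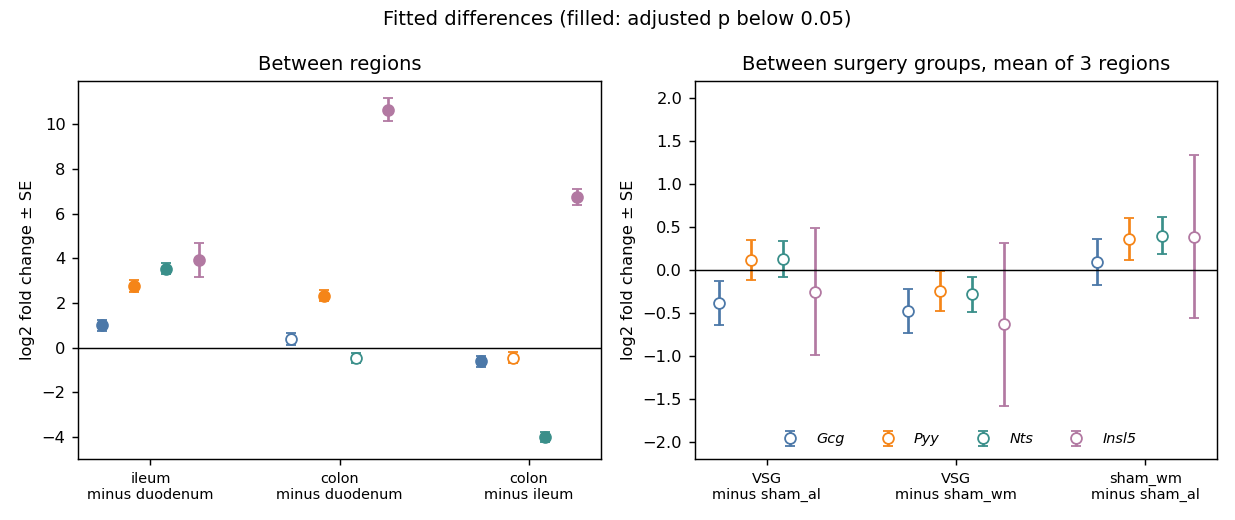
Fitted log2 fold change ± SE of each member (edgeR) between regions, left, and between surgery groups over the mean of the 3 regions, right; filled points have an adjusted p under 0.05. Nts is higher by 3.54 in the ileum than in the duodenum and no surgery difference of the 4 genes is filled. The Insl5 points against duodenum and ileum depend on the prior count, since those regions are near 0. The filled Insl5 points of the colon contrasts are not to be read as a test, because Insl5 passed the filter on low counts through the colon.

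Ratios of 2 members in the same library do not depend on how the library was scaled. The ratio of Pyy to Gcg counts separated the duodenum from both distal regions: its mean log2 value was -2.40 ± 0.61 for duodenum, -0.63 ± 0.71 for ileum and -0.42 ± 0.41 for colon (SD, n = 16). Within mice it was 1.76 ± 0.86 higher in the ileum and 1.92 ± 0.68 higher in the colon than in the duodenum, in 15 of 15 mice for both (exact sign-flip permutation test, p = 6.1e-05, the smallest that 15 mice can give, adjusted p = 9.16e-05 over 9 comparisons). Between colon and ileum it differed by 0.21 ± 0.86 (n = 16), in 10 of 16 mice upward (exact permutation, p = 0.345). Per kilobase the median Pyy to Gcg ratio was 0.466 for duodenum, 1.36 for ileum and 1.8 for colon.

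The ratio of Nts to Gcg had mean log2 values of -0.23 ± 0.82 for duodenum, 2.37 ± 0.78 for ileum and -0.99 ± 0.76 for colon. It rose by 2.57 ± 1.03 from duodenum to ileum in 15 of 15 mice (exact permutation, adjusted p = 9.16e-05) and fell by 3.35 from ileum to colon in 16 of 16 (exact permutation, adjusted p = 9.16e-05). The colon lay below the duodenum by a smaller amount, -0.82 ± 1.15, with 5 of 15 mice going the other way (exact permutation, adjusted p = 0.0162). The ratio of Nts to Pyy was 2.17 ± 0.71, 3.00 ± 0.39 and -0.56 ± 0.58 in duodenum, ileum and colon. It was higher in the ileum than in the duodenum by 0.81 ± 0.87 in 13 of 15 mice (exact permutation, adjusted p = 0.00392), and in the colon it was below both other regions in every mouse, with differences of -2.74 ± 1.06 from the duodenum and -3.56 ± 0.66 from the ileum. In the ileum this ratio had the smallest spread of all, from 2.47 to 3.98 on the log2 scale over libraries whose Nts level ran from 3127 to 13693 CPM. The Insl5 to Gcg and Insl5 to Pyy ratios could be followed in the colon alone, with log2 means of -2.49 ± 0.57 and -2.06 ± 0.45, or medians of 0.356 and 0.212 per kilobase.

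**Figure D4:**
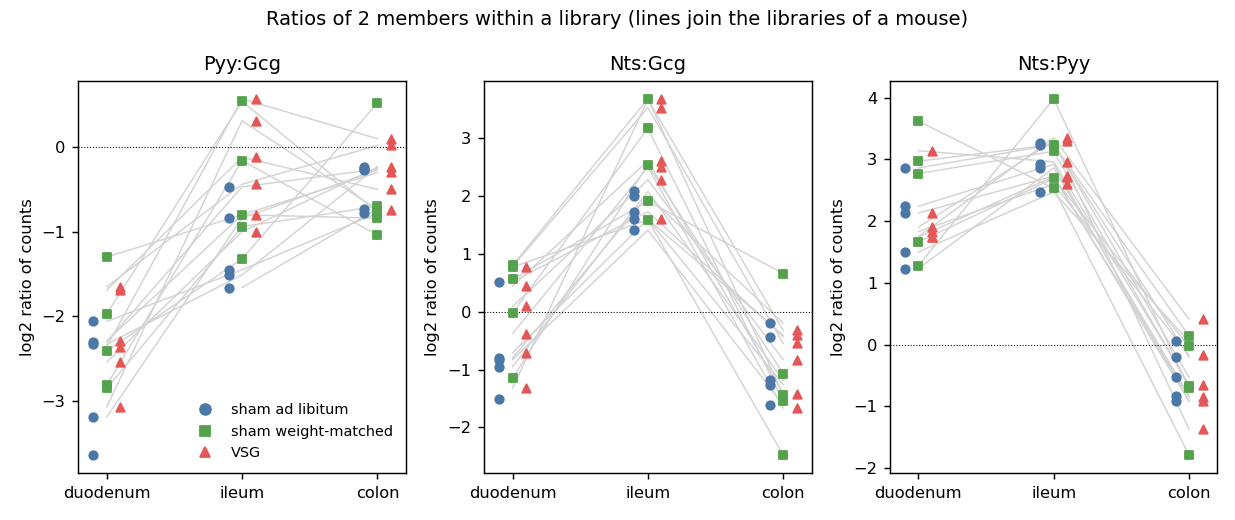
Log2 ratio of the counts of 2 members in each library by region; grey lines join the libraries of a mouse and symbols give the surgery group. Pyy:Gcg rises from the duodenum to both distal regions in 15 of 15 mice, and both Nts ratios peak in the ileum.

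Between surgery groups, 33 comparisons of ratios were made and none passed after adjustment. The lowest p values were those of the ileum between VSG and sham AL mice. There the log2 ratio of Pyy to Gcg was -0.25 ± 0.62 in VSG mice (n = 6) and -1.19 ± 0.51 in sham AL mice (n = 5), a difference of 0.94 (exact permutation test, p = 0.0281, adjusted p = 0.464). The log2 ratio of Nts to Gcg was 2.70 ± 0.78 and 1.76 ± 0.27, also a difference of 0.94 (exact permutation test, p = 0.0281, adjusted p = 0.464). Both pairs of groups overlapped. Sham WM mice had -0.54 ± 0.74 for Pyy to Gcg and 2.58 ± 0.86 for Nts to Gcg in the ileum (n = 5), between the other two groups, and the ratio of Nts to Pyy, which involves no Gcg, had a mean of 2.95 in both VSG and sham AL mice. In the colon the mean Pyy to Gcg ratio of VSG mice was -0.28 ± 0.31 and that of sham AL mice -0.45 ± 0.28 (exact permutation, p = 0.344).

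Co-variation between libraries was examined within each region on log2 CPM, over 16 libraries and 12 pairs of members. In the colon Insl5, Pyy and Gcg rose and fell together. Pearson's r was 0.91 between Insl5 and Pyy (Spearman's rho 0.89, permutation adjusted p = 6e-05 for both), 0.88 between Gcg and Pyy (rho 0.90, permutation adjusted p = 6e-05 for both) and 0.81 between Insl5 and Gcg (rho 0.85, permutation adjusted p = 0.00045 and 0.0002). The p of the former 2 pairs is the smallest that 100000 permutations can give. Without the 2 libraries farthest from the median of the gene named first, r was 0.86, 0.83 and 0.71, and among the 11 colon libraries of 1 index it was 0.97, 0.86 and 0.82. Taken as deviations from the surgery group means, r was 0.93, 0.89 and 0.82. Colonic Nts was less tied to them, with r of 0.54 to Pyy (rho 0.65, permutation adjusted p = 0.0649 and 0.02), 0.49 to Gcg (rho 0.63, permutation adjusted p = 0.0952 and 0.0208) and 0.35 to Insl5 (rho 0.44, permutation adjusted p = 0.229 and 0.141). The Pearson call of Pyy with Nts passed without VSG mouse 22 or 30 or sham WM mouse 29 (r of 0.59, 0.62 and 0.64), and that of Gcg with Nts without sham WM mouse 29 (0.56). Whether these correlations differ from each other was not tested.

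In the ileum the pair with the highest r was Pyy and Nts, with r = 0.83 (rho 0.65, permutation adjusted p = 0.0004 and 0.02), or 0.64 without the 2 libraries farthest from the median Pyy level, and 0.83 and 0.91 within the 7 and 8 libraries of an index. Gcg had r of 0.46 to Pyy (rho 0.23, permutation adjusted p = 0.108 and 0.42) and 0.28 to Nts (rho 0.17, permutation adjusted p = 0.303 and 0.528). On deviations from the surgery group means Gcg and Pyy passed (r = 0.59, permutation adjusted p = 0.0336). Both relations of Gcg rest on the extreme libraries, since without the 2 farthest they were -0.12 and -0.05, and without sham WM mouse 29 alone they were 0.13 and -0.03. In the duodenum Gcg and Pyy had r = 0.61 (rho 0.58, permutation adjusted p = 0.0302 and 0.0351), Pyy and Nts 0.45 (rho 0.41, permutation adjusted p = 0.108 and 0.152), and Gcg and Nts 0.33 (rho 0.28, permutation adjusted p = 0.234 and 0.352). The relation of Gcg and Pyy in the duodenum also rests on few libraries: r was 0.22 without the 2 farthest, 0.38 over the 12 libraries of index D502, and its call was lost without VSG mouse 18 (0.59), sham WM mouse 21 (0.59) or sham WM mouse 27 (0.39). Without sham WM mouse 29 the pair of Pyy and Nts passed in the duodenum (0.55).

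**Figure D5:**
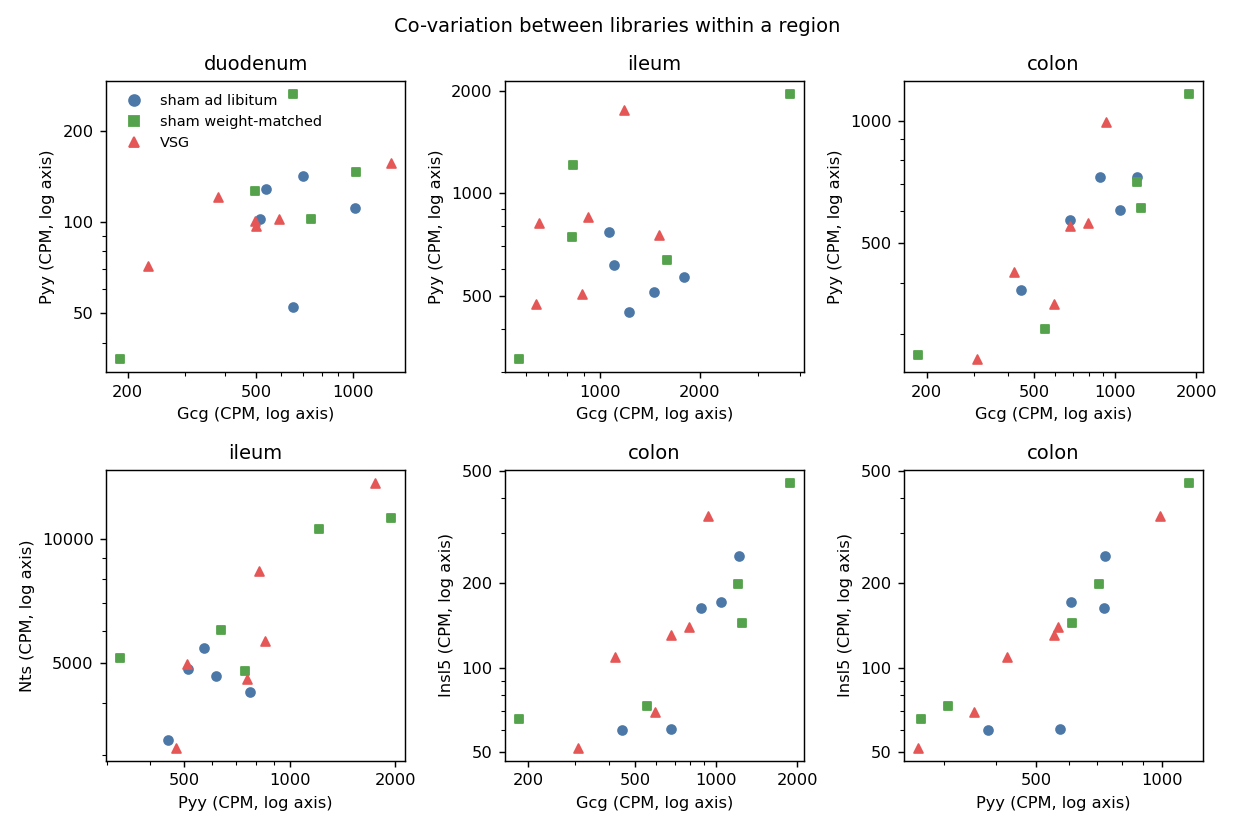
Levels of 2 members in the 16 libraries of a region, in CPM on log axes, with symbols for the surgery groups. Insl5, Pyy and Gcg line up in the colon (r of 0.81 to 0.91) and Pyy with Nts in the ileum (0.83), and r of Gcg and Pyy in the ileum is 0.46.

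Levels of a member in different regions of the same mouse were compared next. Of 9 such correlations, that of Nts between duodenum and ileum passed (r = 0.71, n = 15, permutation adjusted p = 0.0301), with rho 0.53 (permutation adjusted p = 0.387), r of 0.52 without the 2 farthest mice, and r of 0.63 to 0.67 that did not pass without VSG mouse 25 or sham WM mouse 29 or 31. For Pyy between ileum and colon r was 0.61 (rho 0.41, n = 16, permutation adjusted p = 0.0571 and 0.483), and it passed with r of 0.64 to 0.68 without sham AL mouse 13, 19 or 24, sham WM mouse 27, or VSG mouse 11 or 30. The other 7 had r from -0.25 to 0.46, with Gcg at -0.11 between duodenum and ileum, 0.46 between duodenum and colon and 0.20 between ileum and colon. Without sham WM mouse 27, Pyy between duodenum and colon went from 0.07 to -0.37 and Gcg between duodenum and ileum to 0.03. Within the largest sets of mice that share the index in both regions (n = 6 for duodenum with ileum and for ileum with colon, n = 8 for duodenum with colon), r was 0.85, 0.49 and 0.29 for Nts, -0.20, 0.86 and -0.61 for Pyy, and 0.08, 0.69 and 0.46 for Gcg.

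The members were also set beside other hormone and endocrine genes, as a description over 16 libraries per region that share depth and scaling. Chga, the gene of chromogranin A in endocrine granules, had r of 0.29 to Gcg, 0.14 to Pyy and -0.14 to Insl5 in the colon, whereas Scg2, the gene of secretogranin II, had r of 0.80, 0.83 and 0.84, and Sst, the gene of somatostatin, 0.73, 0.80 and 0.84. In the ileum Nts had r of 0.94 to Scg2 and 0.88 to Sct, the gene of secretin, and Pyy 0.83 and 0.76, while Gcg had 0.29 and 0.14. Cck, the gene of cholecystokinin, had r of 0.82 to Gcg in the colon (rho 0.71) and 0.18 in the ileum (rho 0.14). In the duodenum many of these values rest on the library of mouse 27. There r of Gcg was 0.72 to Cck (rho 0.49), 0.69 to Ghrl, the gene of ghrelin (rho 0.70), and 0.54 to Chga (rho 0.41), and without that library it was 0.53, 0.47 and 0.09. Duodenal Pyy had r of 0.83 to Cck (rho 0.70) and 0.60 to Chga (rho 0.39), or 0.68 and 0.12 without it. Chga had r of -0.20 to Gcg, -0.15 to Pyy and -0.16 to Nts in the ileum.

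Over all 48 libraries, after the mean of each of the 9 groups was subtracted, the 5 genes most like Gcg among those tested were Etv1, a transcription factor (r = 0.85), Vim, which encodes vimentin (0.76), Cck (0.74), the potassium channel gene Kcnk16 (0.73) and Cxxc4 (0.73), and Pyy followed at 0.71. For Pyy they included Scg2 (0.75), the fatty acid receptor gene Ffar1 (0.73), Etv1 (0.70) and the calcium-sensing receptor gene Casr (0.69). For Nts they were Selenok (0.78), Sct (0.77), Rap1b (0.75), Stard5 (0.70) and Cltrn (0.70), and Gcg stood at 0.42. For Insl5, over the 16 colon libraries, they were 1700086L19Rik (0.88), Pkia (0.88), the peptidase gene Dpp4 (0.86), the calcium-binding protein gene Scgn (0.86) and Cyp4x1os (0.85), with Pyy above all of them at 0.93. Etv1 was thus near both Gcg and Pyy, and none of the 5 genes of Nts was among those of Gcg.

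The other genes of the L-cell pathway were described with a list of 40 genes for peptide processing, receptors of the peptides, the peptidase Dpp4, transcription factors and nutrient or hormone sensing receptors, of which 34 passed the filter on low counts. Between ileum and duodenum 4 were higher and 14 lower in the ileum, between colon and duodenum 9 were higher and 21 lower in the colon, and the contrast of colon with ileum had 11 higher and 17 lower, with median log2 differences of -0.15, -0.96 and -0.29 beside medians of all genes near 0. The shares of all tested genes that were higher and lower were 17.2% and 16.6%, 26.8% and 28.3%, and 23.8% and 25.4%. Some list genes passed the filter through a single region, which builds a difference into their test. Under scaling on the pan-endocrine genes the split was 17 higher and 8 lower, 17 and 13, and 17 and 11. With the first index as a covariate the number of called list genes fell from 18 to 6 between ileum and duodenum and from 30 to 18 between colon and duodenum. In the surgery contrasts edgeR called 0 of the 34, with 0 to 6 at an unadjusted p under 0.05, and DESeq2 and limma voom called 0. Exceptions under alternatives were Casr and Gpbar1 between VSG and sham WM over the mean of regions without sham WM mouse 27 (Casr alone without its duodenum library), and, under pan-endocrine scaling in the duodenum, Dpp4 between the sham groups and Dpp4 and Gpbar1 between VSG and sham WM. These genes were named after their values were seen.

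Among the processing genes, Pcsk1, the convertase that yields GLP-1, fell by 2.73 from ileum to colon (SE 0.143) on the log2 scale, while its inhibitor gene Pcsk1n was higher in the colon by 2.31 than in the ileum and by 2.64 than in the duodenum (SE 0.161 and 0.163). Pcsk2, the convertase of pancreatic glucagon, was found mainly in the duodenum, with a median of 26.4 CPM there (9.54 to 41.4), 0 in the ileum (highest 1.28) and 0.4 in the colon (highest 2.4). Among receptors of the members' peptides, Rxfp4, the receptor of insulin-like peptide 5, was near the limit of detection except in the colon, where its median was 1.59 CPM (0 to 4.22), against 0 in the duodenum (highest 0.6) and 0.0581 in the ileum (highest 0.554). The neurotensin receptor gene Ntsr2 had a median of 1.33 CPM in the duodenum (0 to 2.4) and of 0 in ileum (highest 0.221) and colon (highest 0.757). These genes passed the filter through the region where they are high, so that their levels are given as a description, with no fold or test. The neuropeptide Y receptor gene Npy1r was higher by 0.58 in the ileum than in the duodenum (SE 0.162), and by 1.31 in the colon than in the ileum (SE 0.161). Of the transcription factors, Isl1, which is known to act on Gcg, fell by 3.40 from duodenum to colon (SE 0.233) and by 2.46 from ileum to colon (SE 0.228), and Cdx2, a factor of the intestinal lining, was higher by 0.32 in the ileum than in the duodenum (SE 0.059). Of the sensing receptors, Ffar1 differed by -2.69 between colon and ileum (SE 0.194). The angiotensin receptor gene Agtr1a had a median of 5.26 CPM in the colon (0.601 to 17.8) and of 0 in duodenum and ileum (highest 0.494 and 0.698), and Mc4r of 4.89 CPM for duodenum, 0 for ileum and 0.356 for colon. The bile acid receptor gene Gpbar1 had medians of 0.338 CPM for duodenum, 4.11 for ileum and 1.9 for colon. Levels of these 3 genes are likewise a description. The genes given here with a log2 difference passed edgeR's threshold, and each lower difference was larger than the shift of all genes that scaling on the pan-endocrine genes brings.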

How the data were processed

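Sorted enteroendocrine cells of 17 mice were sequenced as 48 libraries. The authors deposited 1 table of unnormalized read counts per gene, made with STAR 2.5.1 on GRCm38 with Ensembl release 91. The strand setting of counting is not given in the sources used here. Columns were matched by title. The members, and the lists beside them (40 L-cell genes, other hormones, 10 pan-endocrine genes for scaling, cell type markers), were chosen with earlier results of these data known.

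The main test was edgeR 4.0.16 (R 4.3.3) after filterByExpr and TMM, with a mean for each of 9 groups, the robust quasi-likelihood test and Benjamini-Hochberg adjustment at 0.05 over 15126 genes. The study itself used DESeq2 on operation group and region, and DESeq2 1.42.0 was an alternative. A standard error is the log2 fold change over the square root of F. CPM are TMM-scaled, and log2 CPM has a prior count of 2. Log2 count ratios (0.5 added to each count) were compared by exact sign-flip tests within mice, or exact permutation over mice between surgery groups. Correlations had 100000 permutations (scipy 1.17.1). All tests were two-sided, and the edgeR fit was tested on simulated counts. P-values of surgery contrasts within a region rest on 1 library per mouse. In the region contrasts, and in the surgery contrasts over the mean of regions, the main fit took the libraries of a mouse as independent. Those p-values thus measure the spread between libraries. The alternatives with a random mouse block, a fixed mouse block (region contrasts) or sums per mouse (surgery contrasts) do not take them so.

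Total counts were 4648651 to 17182463. Intervals and floors (3 counts) cover counting error only. The mouse number pairs libraries of an animal across regions: same-mouse deviations from group means correlated with a median r of 0.105 over 46 pairs and 2000 genes (-0.020 to 0.389). Alternatives were other size factors, pan-endocrine scaling, DESeq2, no filter (40391 genes), a stricter filter (12977), limma 3.58.1 voom (mouse as random replicate block), edgeR (mouse as fixed replicate block), sums per mouse, only the libraries compared, other pseudocounts, pooled ratios, group deviations, and leaving out libraries of mouse 12 or each mouse. Leaving out 1 duodenum library (mouse 27), the first index as covariate, and values within an index were chosen after seeing the data. Other genes were named by size of change in a region contrast (up to 3 per direction) or by likeness to a member (5 each, of which 1 is not reported here). Other measurements of the study were not analysed here.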

Additional observations from a re-analysis of the deposited data

Results flagged for a closer look

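Among 63 sets of 5 or 6 libraries of 1 group and region, 5 held a library whose gap to its nearest neighbour, as a share of the whole range, passed Dixon's 95% critical value, and chance flags about 1 in 20. VSG mouse 25 gave 3 of them: Pyy in the ileum at 1754 CPM (the other 5 at 474 to 852), Insl5 in the colon at 345 CPM (52 to 139), and the log2 ratio of Nts to Pyy in the duodenum at 3.14 (1.74 to 2.13). Gcg in the duodenum of VSG mouse 30 was at 1317 CPM (231 to 590). The log2 ratio of Pyy to Gcg in the colon of sham WM mouse 27 was 0.52 (the other 4 at -1.04 to -0.70). The cause of these values was not tested.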

How the results depend on the processing

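Of 1867 values recomputed under alternatives for 76 results, 1785 were labelled unchanged. For differences and correlations this means the same direction and side of the threshold, and for pooled ratios a shift smaller than the SD. Counts of called genes could shift slightly and keep the label, as with 2 to 3 members between colon and ileum when each mouse was left out. The exceptions on the members follow, and their causes were not tested. The log2 difference of Gcg between colon and ileum did not pass with DESeq2's size factors (-0.60), DESeq2 (-0.60) or no filter (-0.63). Nor did it pass with mouse 12 libraries left out (-0.62) or the first index as a covariate (-0.87). Within index D503 the difference was -1.10 for Gcg (exact permutation test, p = 0.0525) and -0.95 for Pyy (exact permutation test, p = 0.0424). These 2 p-values were not adjusted, so that they cannot be set against the threshold. With the replicate block, Nts passed between colon and duodenum (limma voom -0.44, fixed block -0.49), Insl5 did not between ileum and duodenum (voom 3.19), and Gcg between the sham groups turned to -0.17 (voom); the block changed no other call of a member. Nts between colon and duodenum also passed without the libraries of mouse 12 (-0.51) or the duodenum library of mouse 27 (-0.52), the latter adding 1 called list gene between VSG and sham WM. Pan-endocrine scaling gave 1.58 for Gcg and 0.73 for Nts between colon and duodenum (4 members called) and 0.03 for Gcg and 0.23 for Pyy between colon and ileum, and 90 to 92.4% of genes called in the contrasts with the duodenum, and 89.1% between colon and ileum, were then higher distally. With the first index as a covariate, Insl5 between ileum and duodenum was 2.48, Insl5 between VSG and sham AL 0.32 (0.26 with sums per mouse), Gcg between the sham groups -0.10, and called list genes 18 (colon against duodenum) and 6 (ileum against duodenum), with 4236 and 1713 called genes in place of 8322 and 5110.

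Among correlations within a region, Gcg with Pyy in the duodenum was 0.35 under pan-endocrine scaling and 0.22 without the 2 farthest libraries. In the ileum it was 0.59 on group deviations (passing) and -0.12 without the 2 farthest, where Gcg with Nts was -0.05, and in the colon Gcg with Nts was 0.62 (passing). Between regions, pan-endocrine scaling gave 0.28 for Gcg (duodenum and ileum), -0.49 for Pyy (duodenum and colon), 0.61 for Pyy and 0.70 for Nts (ileum and colon, both passing). Group deviations gave 0.71 and 0.59 for the latter, both passing. Without the 2 farthest, Gcg was 0.21 (duodenum and ileum) and -0.23 (ileum and colon), Pyy -0.14 (duodenum and colon) and Nts 0.52 (duodenum and ileum).

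Leaving out each mouse gave log2 differences of -0.59 to -0.35 for Nts (colon minus duodenum) and -0.70 to -0.51 for Gcg (colon minus ileum), -0.07 to 0.20 for Pyy and -0.15 to 0.22 for Nts (VSG minus sham AL), -0.26 to 0.26 for Gcg (sham WM minus sham AL), and 0 to 2 called list genes (VSG minus sham WM). It gave r of 0.39 to 0.71 for Gcg with Pyy and 0.33 to 0.55 for Pyy with Nts in the duodenum, -0.03 to 0.37 for Gcg with Nts in the ileum, and 0.42 to 0.56 for Gcg with Nts and 0.46 to 0.64 for Pyy with Nts in the colon. Between regions r was -0.33 to 0.03 (Gcg, duodenum and ileum), -0.16 to 0.42 (Gcg, ileum and colon), -0.44 to 0.01 (Pyy, duodenum and ileum), -0.37 to 0.31 (Pyy, duodenum and colon), 0.47 to 0.68 (Pyy, ileum and colon) and 0.63 to 0.77 (Nts, duodenum and ileum). Depth limits Insl5 in the duodenum, where 9 of 16 libraries had 0 counts.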
